A study of Mus musculus with 6 samples.

Results

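The spliceosome is the ribonucleoprotein machine that removes introns from pre-mRNA, and 49 genes for its core proteins outside the SF3A and SF3B complexes were examined here, out of 35865 genes in the data. They were chosen by symbol, by their known place in the machine and not by a measured value, with earlier results of these data known. All 49 were found in both the gene table and the transcript files. Messenger RNA of the hippocampus had been sequenced in 3 wild-type (WT) mice and 3 Prmt9 knockout (Prmt9 KO) littermates, all 2-week-old females on the B6J background. The knockout lacks Prmt9 in every tissue, because a floxed exon of the gene was deleted in the germ line with CMV-Cre. No treatment or other allele is named as a difference between the groups, and the study's methods do not give the Cre status of the WT mice. Each mouse gave 1 library of a whole tissue, so fewer cells of a type and less RNA per cell cannot be told apart.

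Splicing begins when the U1 particle pairs with the start of an intron, while SF1 binds the branch point and the U2AF pair binds the end of the intron. The U2 particle then replaces SF1, the U4/U6.U5 tri-snRNP joins, and RNA helicases with the Prp19 complex rebuild the assembly into the enzyme that cuts and joins the RNA. Each of the U1, U2, U4 and U5 particles carries the same ring of 7 Sm proteins. PRMT9 is an arginine methyltransferase whose known substrate, SF3B2, belongs to U2, and the comparison asked whether the genes for the rest of the core machine, and the choice among their own alternative transcripts, differed when Prmt9 was missing.

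Several of these genes have annotated alternative transcripts in which including or skipping an exon, or keeping an intron, brings an early stop codon. Transcripts of that kind can control the amount of protein, which was not measured here. The sequences below are those the isoform results turn on, read from the GENCODE M21 transcripts (GRCm38, 5′ to 3′ on the strand of the gene). The first is the cassette exon of Rbm5, which encodes an RNA-binding regulator of 3′ splice site pairing. It has 74 bases at chr9:107759776-107759849 on the minus strand, in the coding part of the gene. Capitals mark the exon, between 20 bases of each neighbouring exon.
Rbm5 cassette exon: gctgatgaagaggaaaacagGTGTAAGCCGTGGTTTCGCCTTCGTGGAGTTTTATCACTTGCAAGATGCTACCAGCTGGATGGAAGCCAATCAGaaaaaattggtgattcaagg
Without these 74 bases, which are no multiple of a codon, the annotated transcript Rbm5-210 runs from the skip junction into the stop codon in capitals.
Rbm5-210 skip junction to stop: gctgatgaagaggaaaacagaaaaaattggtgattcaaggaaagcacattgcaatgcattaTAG
That stop lies 1795 bases before the last exon junction, and the annotated reading frame is 150 codons against 815 in the including transcript Rbm5-214. Another form, Rbm5-219, keeps the introns on both sides of the exon. The ends of the 472-base intron before it, at chr9:107760302-107760341 and chr9:107759830-107759889, are shown with the intron in capitals.
Rbm5 intron, 5 prime splice site: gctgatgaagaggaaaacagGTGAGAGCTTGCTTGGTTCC
Rbm5 intron, 3 prime splice site: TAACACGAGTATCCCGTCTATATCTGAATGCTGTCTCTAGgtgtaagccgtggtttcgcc

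Sf1 and Snrpa1 have coding cassette exons of the same kind, with the exon again in capitals. The Sf1 exon has 76 bases at chr19:6368364-6368439 on the plus strand, and the Snrpa1 exon has 80 bases at chr7:66070119-66070198 on the plus strand.
Sf1 cassette exon: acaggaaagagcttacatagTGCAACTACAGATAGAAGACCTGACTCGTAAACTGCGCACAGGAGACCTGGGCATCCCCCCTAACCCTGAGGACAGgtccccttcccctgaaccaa
Snrpa1 cassette exon: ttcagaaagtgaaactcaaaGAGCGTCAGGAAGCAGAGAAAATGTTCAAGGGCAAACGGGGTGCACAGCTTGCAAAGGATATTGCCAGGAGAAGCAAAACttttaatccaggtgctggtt
Skipping the Snrpa1 exon reaches the stop in capitals soon after the junction, 164 bases before the last exon junction.
Snrpa1-201 skip junction to stop: ttcagaaagtgaaactcaaatttTAA
In Snrpb the included form is the one with the early stop. Its 124-base exon lies at chr2:130176629-130176752 on the minus strand, and its stop codon is in capitals.
Snrpb poison exon: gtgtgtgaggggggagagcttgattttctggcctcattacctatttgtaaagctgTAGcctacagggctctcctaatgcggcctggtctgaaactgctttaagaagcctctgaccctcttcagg
U2af1, the small subunit that reads the AG at the end of the intron, chooses between 2 exons of equal length. U2af1-201 carries the exon at chr17:31651646-31651712 and U2af1-202 the one at chr17:31652502-31652568, both on the minus strand. Capitals mark the 23 of 67 positions at which the exons differ.
U2af1 exon used by U2af1-201: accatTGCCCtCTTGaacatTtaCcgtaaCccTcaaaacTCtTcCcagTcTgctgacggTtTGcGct
U2af1 exon used by U2af1-202: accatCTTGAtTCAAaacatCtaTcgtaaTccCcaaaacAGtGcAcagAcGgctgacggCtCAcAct

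The libraries held between 194098391 and 286771677 estimated counts. The 2 mice numbered 1 stood apart from the other 4. On the first principal component, which held 67.4% of the variance of the log2 gene counts scaled to depth, WT mouse 1 scored -109.9 and KO mouse 1 -30.5, while the other mice scored between 31.3 and 37.6. No count was assigned to 37.4% of transcripts in WT mouse 1, against 22.8% to 24.8% in the other mice. Results are therefore given with and without the mice numbered 1. Nothing in the labels says what the number stands for, and its part in any result was not tested. The tissue was recognisable by its markers: all 6 markers of excitatory neurons were detected, with a summed level of 3141 to 4795 TPM in WT and 3280 to 4567 TPM in KO. The summed level of 6 choroid plexus markers ran from 612 to 7271 TPM in WT and from 868 to 3348 TPM in KO, and that of 5 blood markers from 2553 to 6334 TPM in WT and from 1036 to 3275 TPM in KO, with 2 of the 5 blood markers at an unadjusted p below 0.05 (edgeR). The choroid plexus sum was highest in WT mouse 1 and lowest among KO mice in KO mouse 1, and the blood sum was lowest in mouse 1 of each genotype. The 6 oligodendrocyte lineage markers summed to 1872 to 10162 TPM in WT and 986 to 9889 TPM in KO. Mouse 1 had the lowest of these sums in each genotype. No marker was at 0 in all mice, none was called, and all 8 lists overlapped between genotypes. The part of cell composition in the results below was not tested.

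The targeted gene was measured first. Prmt9 (chromosome 8, 77549397 to 77581338) stood at 11.8, 15.2 and 15.0 TPM (a level corrected for transcript length and library size) in WT mice 1, 2 and 3. In KO mice 1, 2 and 3 it stood at 3.93, 4.61 and 4.67 TPM. Every KO mouse lay below every WT mouse, and the log2 fold change was -1.71 ± 0.1 (SE, n = 3 per genotype; edgeR quasi-likelihood test, adjusted p = 0.0327). The labels and the measured gene therefore matched in all 6 mice.

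Core spliceosome genes were expressed across a wide range of levels in the hippocampus. Together the 49 genes made up 3376, 3480 and 3490 TPM in WT and 3684, 3479 and 3470 TPM in KO. The gene with the highest mean WT level was Snrnp70, which encodes the U1 protein that binds the U1 RNA. It had 247.3, 428.1 and 421.9 TPM in WT and 313.9, 409.5 and 438.0 TPM in KO. Prpf19, the ubiquitin ligase that gives the Prp19 complex its name, came next with 161.7, 170.6 and 169.0 TPM in WT and 178.1, 171.0 and 163.8 TPM in KO. The lowest were Crnkl1, a scaffold of the same complex, with 8.51 to 9.76 TPM in WT and 9.3 to 10.5 TPM in KO, and Prpf4, a U4/U6 protein, with 7.89 to 11.3 TPM in WT and 10.1 to 11.2 TPM in KO. In both lowest genes, and in Snrnp70, WT mouse 1 had the lowest value of the 6.

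**Figure D1:**
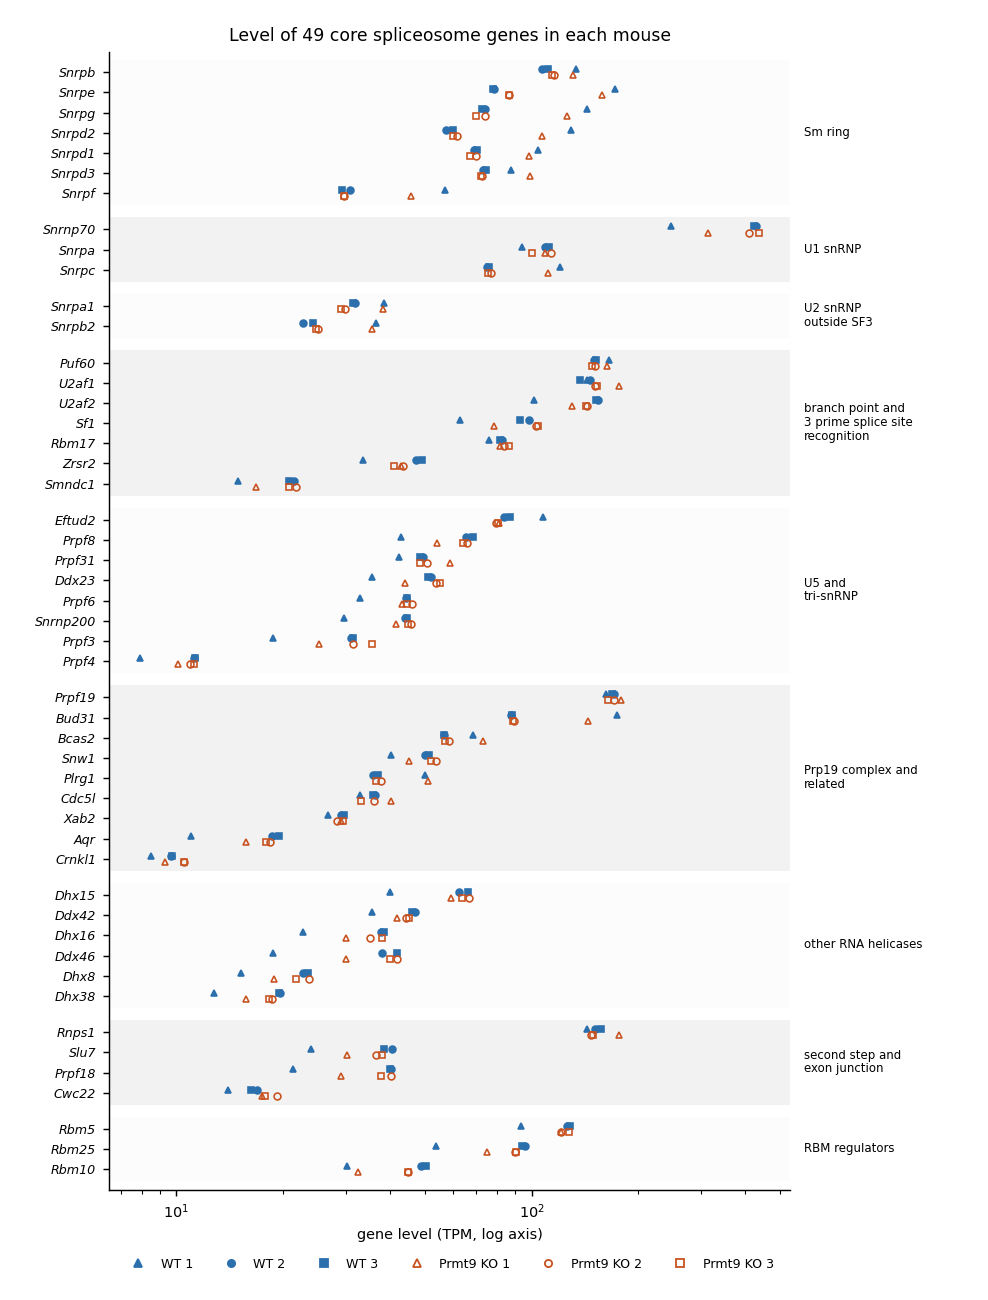
Level of each of the 49 genes in TPM on a log axis, 1 point per mouse, with WT filled and Prmt9 KO open and triangles for the mice numbered 1. Genes are grouped by place in the spliceosome and ordered by mean WT level; Snrnp70 is highest and Crnkl1 and Prpf4 lowest, and the triangles sit to the right of the other points for the Sm ring and to the left for the helicases.

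The level of these genes in the mice numbered 1 followed the length of their mRNA. All 7 Sm ring genes were higher in mouse 1 than in the mean of mice 2 and 3, by 1.19 to 2.2 times in WT and by 1.14 to 1.83 times in KO. Snrpe, the ring gene with the shortest mRNA, had 172.0, 78.3 and 77.9 TPM in WT and 157.6, 86.4 and 86.3 TPM in KO. Snrpd2 had 128.8, 57.6 and 60.2 TPM in WT and 106.8, 61.5 and 60.1 TPM in KO. In both genes mouse 1 of either genotype lay above the other 4 mice, which differed little. Bud31, a short gene of the Prp19 group, behaved alike with 173.8, 87.7 and 88.3 TPM in WT and 144.2, 89.3 and 88.5 TPM in KO.

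The 6 RNA helicases outside the U5 group all went the other way, at 0.47 to 0.761 times in WT mouse 1 and 0.733 to 0.934 times in KO mouse 1. Ddx46, which acts when U2 joins the intron, had 18.7, 37.9 and 41.7 TPM in WT and 30.0, 41.8 and 40 TPM in KO. Prpf8, the large protein at the catalytic centre, had 43.0, 65.3 and 68.5 TPM in WT and 54.2, 66.0 and 64.0 TPM in KO. Over the 49 genes the rank correlation between the ratio of mouse 1 to mice 2 and 3 and the mean transcript length was -0.70 in WT and -0.67 in KO (Pearson's r -0.74 and -0.72). Over 15071 tested genes at 1 TPM or more it was -0.45 and -0.31 (Pearson's r -0.31 and -0.22). These are descriptions across genes that share the same libraries. All 7 members with a mean transcript length under 1000 bases were higher in mouse 1 in both genotypes, and none of the 11 members of 3000 bases or more was. Over all genes, 1170 of 1875 short genes and 541 of 5224 long genes were higher in WT mouse 1.

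**Figure D2:**
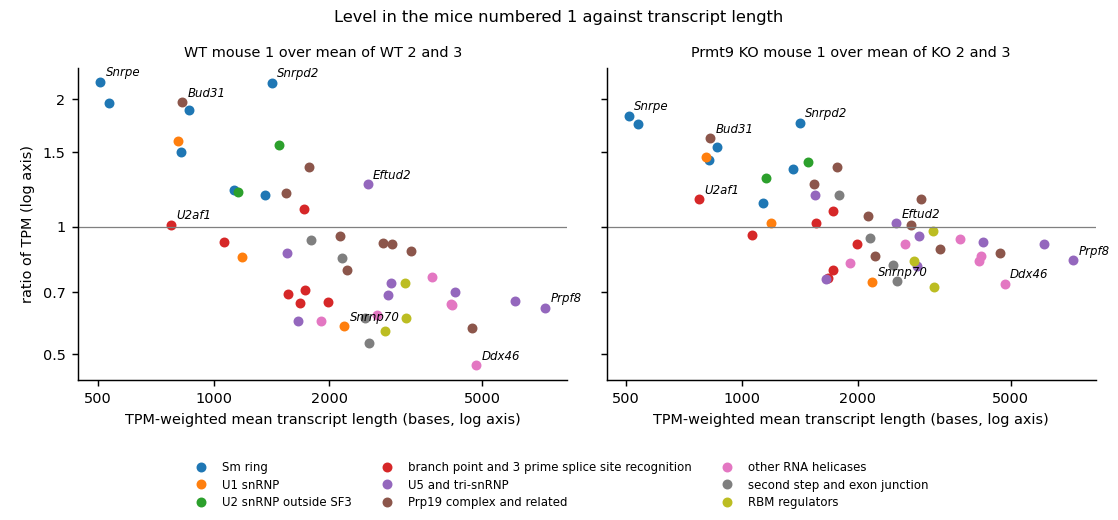
Ratio of a gene's TPM in mouse 1 to its mean in mice 2 and 3 (log axis) against its TPM-weighted mean transcript length in bases (log axis), for WT on the left and Prmt9 KO on the right, 1 point per gene coloured by place in the spliceosome. Snrpe, with a ratio of 2.2 in WT, stands at the short end and Ddx46, with 0.47, toward the long end.

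No core spliceosome gene was called different between genotypes. A gene was called in edgeR's quasi-likelihood test when it changed by over 1.5-fold and its adjusted p was under 0.01. By that rule 0 of 49 members passed, as did 0 of 20315 genes tested (0%). The targeted gene Prmt9 missed the call too (log2 fold change -1.71, edgeR adjusted p = 0.0327). A count of 0 with all mice therefore does not show that levels were equal. Leaving out both mice numbered 1 gave 0 of 49 members and 1 gene (0.00488%). A term for those mice gave 0 of 49 and 1 gene (0.00492%). That gene was Prmt9 in both fits (edgeR adjusted p = 0.00114 and 0.00128). At an unadjusted p below 0.05, 0 of 49 members and 252 of 20315 genes (1.24%) passed. DESeq2 called 0 members and 2 genes in all, and 0 members had an unadjusted p below 0.05 with it. The log2 fold changes of the members ran from -0.27 (Snrpf) to 0.14 (Ddx46) with a median of -0.02, beside a median of -0.01 over all genes tested. The estimate was above 0 for 21 of the 49.

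The precision behind this differed by role. For 38 of the 49 members the 95% interval of the fold change lay within 1.5-fold in either direction. The 11 others all had a mean transcript length under the members' median of 1988 bases: they were 6 of the 7 Sm genes, Snrpc, Snrpa1, Snrpb2, Bud31 and Plrg1. In the Sm ring the median half-width of the interval was 1 on the log2 scale, and only Snrpd3, with an interval of -0.28 to 0.47, lay within 1.5-fold there with all 6 mice. For the 11 genes a difference of that size could not be told from the spread between mice. In the fit of the 4 mice numbered 2 and 3 the median half-width over members was 0.09, and the interval lay within 1.5-fold for all 49 members. With 2 mice per genotype that interval rests on a small sample.

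**Figure D3:**
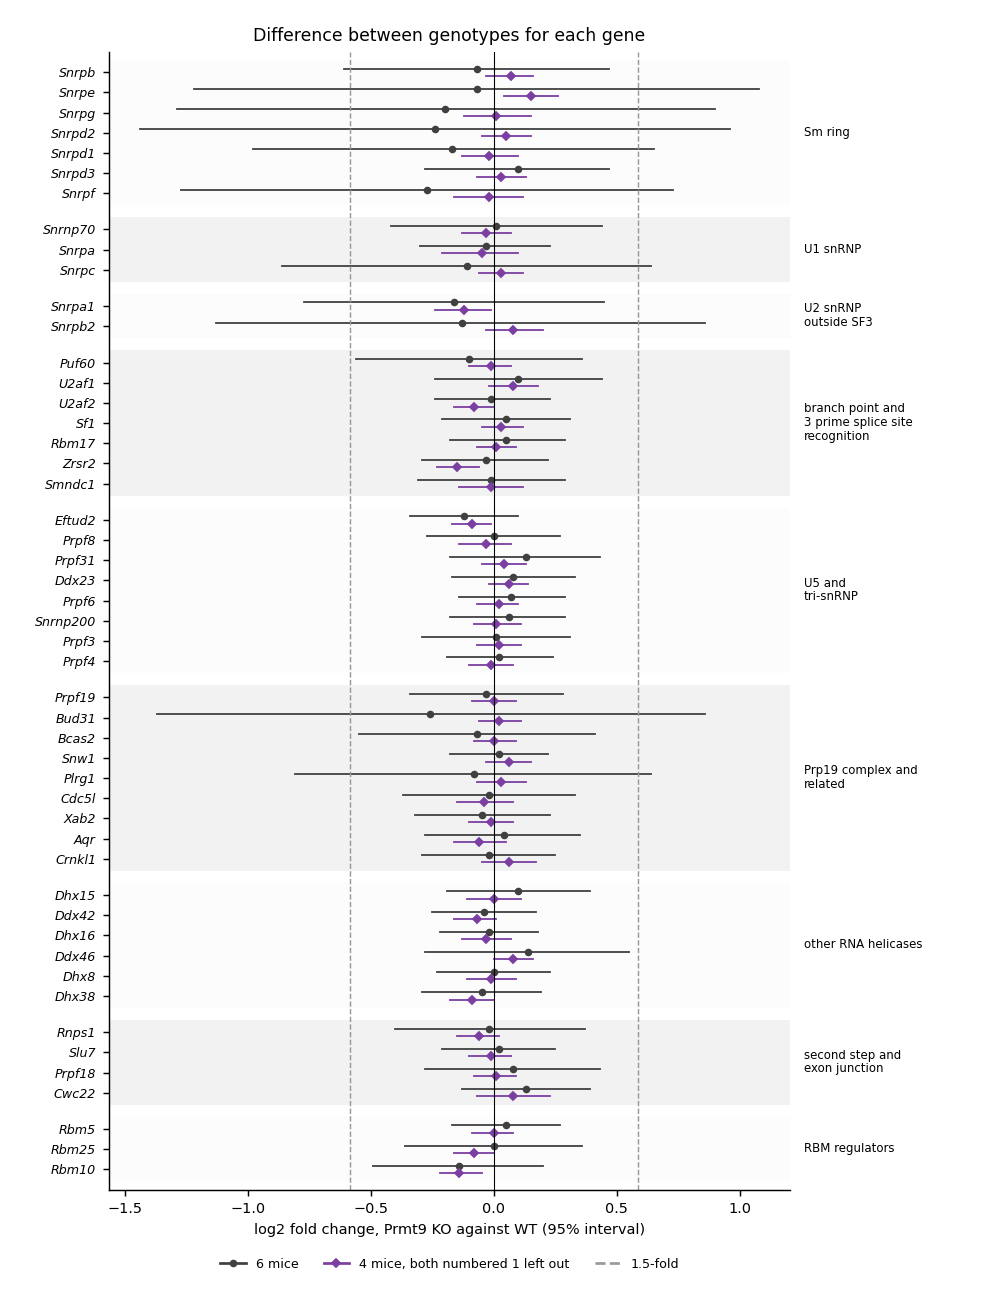
Log2 fold change of Prmt9 KO against WT with its 95% interval for each of the 49 genes, from all 6 mice (dark grey circles) and from the 4 mice left when both mice numbered 1 are left out (purple diamonds); dashed lines mark 1.5-fold. All 49 purple intervals lie between the dashed lines, whereas the dark grey intervals of 11 genes cross one or both of them.

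Among the Sm ring genes, 6 of 7 estimates were below 0 with all mice and none had an unadjusted p below 0.05. Without the mice numbered 1 the direction turned: 5 of 7 were above 0, with a median log2 fold change of 0.03 against -0.17 with all mice. Snrpf had 56.9, 30.9 and 29.3 TPM in WT and 45.7, 29.7 and 29.7 TPM in KO. The log2 difference was -0.27 (95% interval -1.27 to 0.73; edgeR adjusted p = 1). Its KO mice lay inside the range of its WT mice. The estimate was -0.02 without both mice numbered 1 and 0.28 without WT mouse 1. Snrpb, which encodes SmB and is read here at 107.3 to 133.1 TPM in WT and 114.5 to 131.2 TPM in KO, had a log2 fold change of -0.07 (-0.61 to 0.47). Its neuronal paralog Snrpn was the more abundant, at 727.3, 797.4 and 810.1 TPM in WT and 878.4, 845.4 and 837.7 TPM in KO. The Snrpn ranges did not overlap, while the fitted log2 fold change was 0.06 (-0.23 to 0.35; edgeR adjusted p = 1). Snrpb and Snrpn share long stretches of sequence and several Sm genes have processed pseudogenes, so the split of reads among such copies is uncertain. Snrpe had a log2 fold change of -0.07 (-1.22 to 1.08; edgeR adjusted p = 1) with all mice, 0.01 with a batch term for those numbered 1 and 0.15 (0.04 to 0.26; edgeR adjusted p = 0.21) in the 4-mouse fit.

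In the U1 particle, Snrnp70 had a log2 fold change of 0.01 (-0.42 to 0.44). Snrpa, the U1 A protein, was at 93.9 to 111.7 TPM in WT and 100.5 to 113.1 TPM in KO, and Snrpc, whose protein steadies the pairing with the 5′ splice site, at 75 to 120.0 TPM in WT and 75.4 to 111.0 TPM in KO. Both overlapped between genotypes. Of the U2 proteins outside SF3, Snrpa1 encodes U2 A′ and Snrpb2 encodes U2 B″. Snrpa1 stood at 38.4, 31.8 and 31.4 TPM in WT and 38.2, 29.9 and 29.1 TPM in KO, lower in KO within each of the 3 pairs of the same number. The numbers do not pair mice 2 and 3, so one sign in all such pairs is only a description, here and below. The log2 fold change of Snrpa1 was -0.16 (-0.77 to 0.45; edgeR adjusted p = 1) with all mice and -0.12 (-0.24 to -0.01; edgeR adjusted p = 0.277) without those numbered 1. Snrpb2 had 22.7 to 36.6 TPM in WT and 24.8 to 35.5 TPM in KO.

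Of the genes that recognise the branch point and the end of the intron, Puf60, a U2AF-related protein, had the highest mean in WT, with 150.0 to 165.5 TPM in WT and 148.3 to 163.5 TPM in KO. Smndc1 had the lowest mean, with 14.9 to 21.4 TPM in WT and 16.8 to 21.7 TPM in KO. U2af1 was at 143.1, 146.3 and 136.8 TPM in WT and 176.0, 151.3 and 153.2 TPM in KO, so that every KO mouse lay above every WT mouse. Its log2 fold change was 0.10 (-0.24 to 0.44; edgeR adjusted p = 1) with all mice and -0.01 without KO mouse 1, its highest value. The large subunit U2af2 had 101.3, 153.7 and 152.0 TPM in WT and 130.3, 143.7 and 142.3 TPM in KO, and Sf1, the branch point protein, 62.9, 98.1 and 92.6 TPM in WT and 78.3, 102.9 and 104.5 TPM in KO. Both overlapped between genotypes, and their log2 fold changes were -0.01 and 0.05. Zrsr2, which acts on introns of the minor class, had 33.5, 47.4 and 49.1 TPM in WT and 43.0, 43.5 and 41.1 TPM in KO. Its log2 fold change was -0.03 (-0.29 to 0.22; edgeR adjusted p = 1) with all mice and -0.04 with the batch term. In the 4-mouse fit it was -0.15 (-0.23 to -0.06; edgeR adjusted p = 0.162), with the smallest unadjusted p of any member there.

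In the U5 particle and tri-snRNP the highest gene was Eftud2, a GTPase of U5, and it had the smallest unadjusted p of all members. It stood at 107.6, 83.9 and 86.8 TPM in WT and 81.1, 79.3 and 80.3 TPM in KO. All 3 KO values lay below all 3 WT values, with WT mouse 1 well above the rest. The transcript Eftud2-211 held 37 TPM (34.4% of the gene) in WT mouse 1, 3.35 TPM in KO mouse 1 and 0 in the other mice. Without it WT mouse 1 would lie below every KO mouse, so the separation of all mice rests on that estimate. The gene level was then fitted. The log2 fold change of Eftud2 was -0.12 (-0.34 to 0.10; edgeR adjusted p = 1) with all mice and -0.09 (-0.17 to -0.01; edgeR adjusted p = 0.277) in the 4-mouse fit. Prpf31, which bridges U4/U6 and U5, had 42.5, 49.4 and 48.7 TPM in WT and 59.1, 50.9 and 48.4 TPM in KO, with a log2 fold change of 0.13 (edgeR adjusted p = 1). That value rested on KO mouse 1: it was 0.01 without it and 0.04 without both mice numbered 1. Prpf6 and Ddx23, a scaffold and a helicase of the tri-snRNP, had log2 fold changes of 0.07 and 0.08.

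The 9 genes of the Prp19 group had log2 fold changes from -0.26 (Bud31) to 0.04, and their ranges all overlapped between genotypes. The 6 other helicases ranged from -0.05 to 0.14. The highest of them was Dhx15, which takes the spliceosome apart, with 39.9, 62.5 and 66.4 TPM in WT and 59.5, 66.8 and 63.6 TPM in KO. The lowest was Dhx38 with 12.8 to 19.6 TPM in WT and 15.7 to 18.6 TPM in KO. Of the genes of the second step and the exon junction, Rnps1 was highest with 143.7 to 157.3 TPM in WT and 147.1 to 176.8 TPM in KO. Cwc22, which recruits the exon junction complex, had 14.0, 16.9 and 16.2 TPM in WT and 17.4, 19.2 and 17.8 TPM in KO. Its 3 KO mice lay above its 3 WT mice, with a log2 fold change of 0.13 (-0.13 to 0.39; edgeR adjusted p = 1).

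Of the RBM regulators, Rbm5 was highest with 93.2, 125.7 and 128.0 TPM in WT and 121.4, 121.3 and 127.5 TPM in KO. Rbm10, its X-linked relative, had 30.2, 48.8 and 50.4 TPM in WT and 32.4, 44.8 and 45.0 TPM in KO. The Rbm10 ranges overlapped because WT mouse 1 was lowest; in mice 2 and 3 both KO values lay below both WT values. The log2 fold change of Rbm10 was -0.14 (-0.49 to 0.20; edgeR adjusted p = 1) with all mice. It was -0.14 (-0.22 to -0.05; edgeR adjusted p = 0.173) in the 4-mouse fit, and Rbm10 alone among members had an unadjusted p below 0.05 with the replicate block.

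These single genes were set beside the rest of the genome. TPM ranges did not overlap between genotypes for 3 of 49 members (Eftud2, U2af1 and Cwc22) and for 1356 of 20315 genes (6.67%). With both mice numbered 1 left out, 6 of 49 members (Zrsr2, Rbm10, Snrpe, Snrpa1, Eftud2 and Dhx38) had an unadjusted p below 0.05, against 3363 of 20479 genes (16.4%). With a term for those mice as a batch, 4 of 49 members (Ddx46, Eftud2, Rbm10 and Snrpa1) and 1979 of 20315 genes (9.74%) had one, and with the replicate block 1 of 49 and 1168 of 20315 (5.75%). With 49 members each of these counts rests on a few genes, and all come from the same mice. Whether the members' shares differ from those over all genes was not tested.

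Other genes of the pathway, 78 in 9 lists, were not called either: 0 passed the call. Of the 78, 1 had an unadjusted p below 0.05 (edgeR), about the same share as the 252 of 20315 genes tested (1.24%). The 1 pathway gene was Sf3b2, the PRMT9 substrate, at 127.0, 156.3 and 160.4 TPM in WT and 120.1, 131.2 and 133.8 TPM in KO. It was lower in KO in each same-numbered pair, and its log2 fold change was -0.28 (-0.49 to -0.07; edgeR adjusted p = 1). The smallest p in the minor spliceosome list belonged to Rnpc3, a protein of the U11/U12 particle, at 12.1, 25.5 and 25.8 TPM in WT and 20.3, 32.9 and 34.0 TPM in KO, with a log2 fold change of 0.39 (edgeR adjusted p = 1). In the remaining lists the genes with the smallest p were Cwc27, Sart1, Luc7l3, Syf2, Lsm8, U2af1l4 and Wdr77, with log2 fold changes of 0.22, -0.11, 0.16, -0.12, -0.35, -0.17 and 0.07. The median over all 78 was -0.05. Rnpc3 and Sf3b2 had adjusted p-values of 0.0624 and 0.0955 in the 4-mouse fit (edgeR).

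Much of the RNA of the core spliceosome genes was in transcripts annotated as non-productive. The 344 annotated transcripts of the 49 genes comprised 141 protein-coding ones, 127 with a retained intron, 32 subject to nonsense-mediated decay and 44 other processed transcripts. Transcripts with a retained intron held 15.3%, 22.2% and 22.3% of the members' TPM in WT and 17.4%, 21.5% and 22.9% in KO. Over all genes they held 5.71% to 7.67% in WT and 6.45% to 7.69% in KO. In the 10 SF3A and SF3B genes they held 15.3% to 16.2% in WT and 15.9% to 17.4% in KO, which was also above the share over all genes. Nonsense-mediated decay transcripts added 2.71% to 3.86% of the members' TPM in WT and 3.57% to 3.81% in KO. The genotypes overlapped in both classes, and mouse 1 had the lowest share of retained introns in each.

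Per gene, the share of TPM in these non-productive classes could be given for 41 members, and its median in WT was 14.6%. In 10 of the 41 it reached 40% or more, and in 17 it was under 10%. Snrnp70 was highest, with 61.3%, 63.6% and 65.8% in WT and 63.6%, 63.5% and 64.4% in KO. Its retained-intron transcript Snrnp70-216 alone held 30.0%, 32.7% and 34.3% in WT and 30.0%, 31.7% and 31.7% in KO, about as much as its main coding transcript Snrnp70-201 with 35.1%, 31.3% and 29.5% in WT. Rbm5, Prpf3, Dhx16, Prpf31, Rbm17, Snrpa1, Bcas2, Sf1 and Rbm25 followed with means of 60.7% down to 40.7% in WT. At the other end Prpf8 had 0% to 1.63% in WT. The share was lowest in mouse 1 for 33 of 41 members in WT and 30 of 41 in KO.

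**Figure D4:**
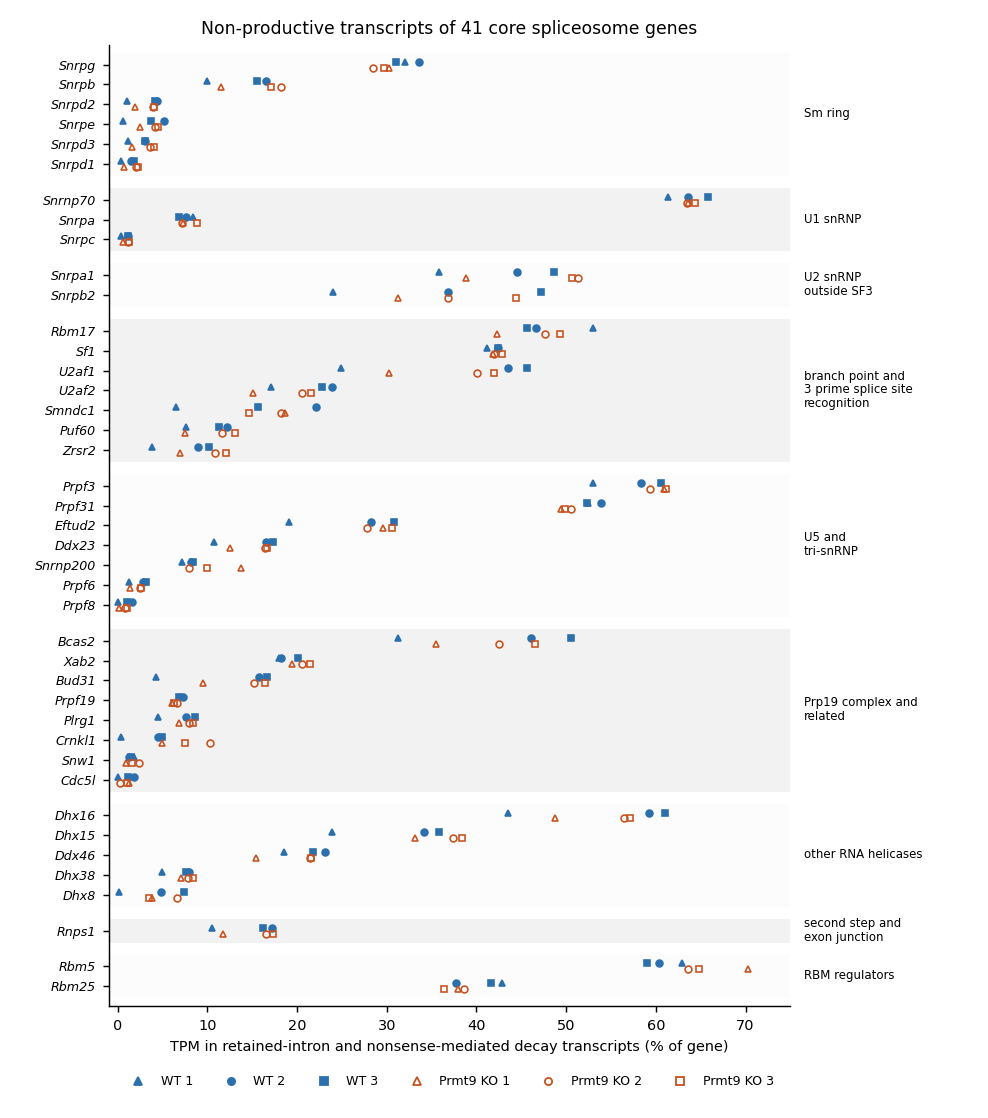
Share of each gene's TPM in transcripts annotated with a retained intron or as subject to nonsense-mediated decay, in percent, 1 point per mouse for the 41 genes in which it could be measured, grouped by place in the spliceosome. Snrnp70 and Rbm5 lie at 59% or more in every mouse, and Rbm5 is the gene whose open points all lie to one side of its filled points with means 5 points or more apart.

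This share was apart between genotypes, meaning that all KO values lay on one side of all WT values and the means differed by 5 points or more, in 1 of 41 members and in 241 of 8722 genes (2.76%). The member was Rbm5, with 62.9%, 60.3% and 59.0% in WT and 70.3%, 63.6% and 64.8% in KO. The KO mean was higher by 5.47 points (60.7% ± 1.96 against 66.2% ± 3.59, SD, n = 3 per genotype; exact permutation p = 0.1, two-sided). With 3 mice against 3, 0.1 is the smallest p this test can give. The difference was 3.42 points without KO mouse 1, 4.6 points without WT mouse 3 and 4.49 points without both mice numbered 1. Each was under 5 points, and ranges apart in all mice cannot overlap in fewer. Without both mice numbered 1, 0 of 41 members and 445 of 8884 genes (5.01%) passed. Counting every size of difference, 4 of 41 members did not overlap, against 752 of 8722 genes (8.62%). Requiring 5 points and one sign in all 3 same-numbered pairs gave 2 of 41 members (Rbm5 and Dhx15) and 487 of 8722 genes (5.58%). The other 3 members without overlap differed by less than Rbm5. Prpf31 had 52.4%, 53.9% and 52.3% in WT and 49.4%, 50.5% and 49.9% in KO, and Snrpg and Prpf19 differed by -2.69 and -0.692 points. The median absolute difference was 0.949 points over members and 1.075 points over all genes.

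Rbm5 was also the 1 of 48 members with a single transcript share apart between genotypes, against 1097 of 12530 genes (8.75%). The coding transcript Rbm5-214, which includes the 74-base exon, held 26.8%, 22.4% and 23.2% of the gene in WT and 12.7%, 19.9% and 17.6% in KO. The difference was -7.36 points (exact permutation p = 0.1, two-sided) and was -4 points without both mice numbered 1, when 2 of 48 members (Snrpa1 and U2af1) and 1950 of 12863 genes (15.2%) passed. By the rule of 5 points and one sign in all 3 pairs Rbm5 was again the 1 of 48, against 2127 of 12530 genes (17%). Grouping all Rbm5 transcripts by what they do at the exon, a choice made after the values were seen, gave 3 forms. The including form was 43.4%, 45.8% and 48.1% of the 3 forms in WT and 34.3%, 40.7% and 40.2% in KO, lower by 7.36 points and without overlap. It differed by -5.32 to -8.56 points when each mouse was left out in turn and by -6.52 points without both mice numbered 1. Ranges apart in all mice cannot overlap in fewer, so only the size of the difference could change.

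The skipping form of Rbm5 that ends in the early stop printed above was 31.7%, 22.7% and 21.5% in WT and 39.3%, 27% and 27.9% in KO. Its ranges overlapped because WT mouse 1 lay above KO mice 2 and 3, and its mean was higher in KO by 6.1 points. The KO value was the higher in each of the 3 same-numbered pairs, but the numbers do not pair mice 2 and 3. Without both mice numbered 1 the difference was 5.35 points, and the 2 KO values lay above the 2 WT values. The form with both introns retained was 25%, 31.5% and 30.4% in WT and 26.4%, 32.3% and 31.9% in KO, with overlap. Inclusion set against skipping alone was 57.8%, 66.8% and 69.2% in WT and 46.7%, 60.2% and 59% in KO. These ranges overlapped, while the KO value was the lower in each of the 3 same-numbered pairs. Set against the spliced, including form alone, retention of the 472-base intron was 36.5%, 40.4% and 38.6% in WT and 43.4%, 44% and 44.2% in KO. Set against the skipping form alone, retention was 44.1%, 58% and 58.6% in WT and 40.2%, 54.5% and 53.3% in KO, with overlap and a lower KO mean. Retention was thus apart between genotypes only beside the including form. The diffSpliceDGE test across all transcripts did not call Rbm5 (adjusted p = 1). Its gene level was not called either, with a log2 fold change of 0.05 (-0.17 to 0.27; edgeR adjusted p = 1).

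**Figure D5:**
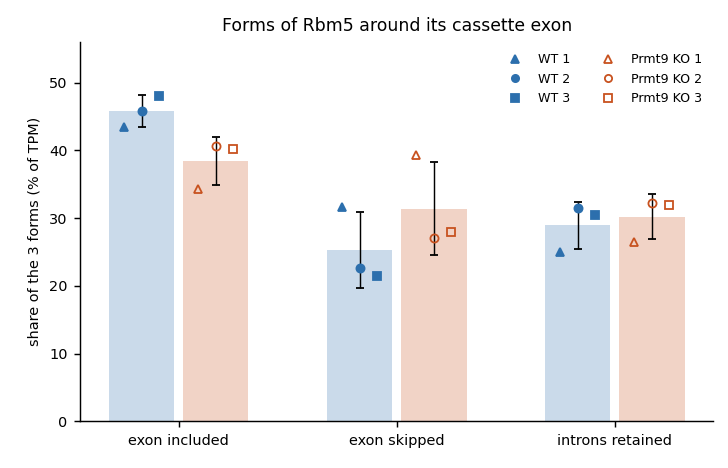
Share of the 3 forms of Rbm5 around its 74-base exon, in percent of their summed TPM, for WT (blue, filled) and Prmt9 KO (orange, open); bars are means of 3 mice, error bars SD, points single mice. All 3 KO mice lie below all 3 WT mice for the including form, and the genotypes overlap for the other forms.

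Annotated cassette exons and retained introns were then measured across all genes, as the share of the including form among the transcripts that include or exclude it (percent spliced in, PSI). Of 22 cassette exons in 15 members, 0 were apart between genotypes, against 449 of 7978 exons (5.63%). Of 40 retained introns in 20 members, 3 were apart, against 347 of 7642 introns (4.54%). The 3 were the introns on each side of the Rbm5 exon, which rest on the same transcripts, and a 433-base stretch of Sf1. The Sf1 stretch was at 96.1%, 90.5% and 96.3% in WT and 100%, 98.9% and 99.5% in KO. Its excluding form is Sf1-203, a rare transcript described below. With both mice numbered 1 left out, 4 of 24 member exons (in Prpf3, Rbm5, Snrpa1 and U2af1) were apart against 1069 of 8443 (12.7%), and 2 of 42 introns (in Sf1 and U2af2) against 805 of 8092 (9.95%). The mice numbered 1 deviated together, while mice 2 and 3 correlated about as well across numbers as within them. A paired rule was added after seeing the data: one sign in all 3 same-numbered pairs and a mean difference of 5 points. By it 3 of 22 member exons (in Prpf3, Rbm5 and U2af1) and 875 of 7978 exons (11.0%) passed, as did 3 of 40 introns (in Rbm5 and Sf1) and 696 of 7642 (9.11%). The Prpf3 exon, of 96 bases in a transcript subject to nonsense-mediated decay, was at 15.7%, 21.1% and 25.7% in WT and 24.7%, 29.8% and 30% in KO. Its ranges overlapped, and each KO value lay above the WT value of the same number. The mean difference was 7.35 points by TPM but 2.66 points by estimated counts.

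The Sf1 exon had a PSI of 68.7%, 69% and 69.1% in WT and 70.9%, 72.7% and 72% in KO. Every KO mouse lay above every WT mouse, by 2.96 points in the mean, and the WT mice lay within a narrow range (exact permutation p = 0.1, two-sided). The skipping transcript Sf1-201, which ends in an early stop, held 14.8%, 14.6% and 15.3% of Sf1 in WT and 13.6%, 11.9% and 11.8% in KO. Sf1 also had the smallest p of all members for transcript usage. With all mice it did not reach the adjusted p of 0.01 needed for a call (diffSpliceDGE, adjusted p = 0.0954), nor was any of 48 members, against 22 of 13560 genes (0.162%); 1 of 48 members, Sf1, had an unadjusted p below 0.05, against 227 of 13560 genes (1.67%). With the replicate block its adjusted p was 0.0438, still above 0.01, and 12 genes were called (0.0885%). It was 2.86e-04 with the batch term, when 52 genes were called (0.383%), and 1.44e-06 without both mice numbered 1 (diffSpliceDGE). Without WT mouse 1 the adjusted p of Sf1 was 7.89e-04 (diffSpliceDGE). In the remaining settings no member was called. The smallest adjusted p of any member was 1 with at least 10 counts per transcript in every mouse, 1 in the gene-level F test, 0.627 with limma's diffSplice, and 0.13 to 0.953 when a mouse other than WT mouse 1 was left out.

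That test of Sf1 turned on a rare transcript. Sf1-203, a protein-coding transcript in which the 433-base stretch is spliced out, had 0.454, 1.7 and 0.625 TPM in WT and 0, 0.155 and 0.0733 TPM in KO. These came from 124, 477 and 163 estimated counts in WT and 0, 51 and 22 in KO. It was 1.04% of Sf1 in the WT mean and 0.0737% in the KO mean. Cwc22 was called as well in the 4-mouse fit (diffSpliceDGE, adjusted p = 0.00345) and without WT mouse 1 (adjusted p = 4.04e-04), against 230 of 13666 genes (1.68%) and 139 of 13774 genes (1.01%). With all mice its adjusted p was 1.

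The Snrpa1 exon had a PSI of 69.5%, 59.5% and 54.9% in WT and 65.9%, 50.7% and 52.9% in KO, with overlap but a lower KO value in each of the 3 pairs. The Snrpb poison exon was included in 7.61%, 10.4% and 9.58% in WT and 6.92%, 11.1% and 9.87% in KO, so that the genotypes differed by 0.0914 points and mouse 1 was lowest in each. The 51-base exon of Puf60 was included in 56.2%, 49.1% and 50.4% in WT and 63.3%, 51.7% and 54.1% in KO, higher by 4.48 points in the mean and in each of the 3 pairs, with overlap. Rbm10 includes a 231-base coding exon, which was at 18.8%, 28.2% and 29.7% in WT and 22%, 29.3% and 26.5% in KO. Its difference of 0.323 points was smaller than the spread between mice.

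For U2af1, 34.9%, 39.3% and 42.8% of the transcripts informative at the paired exons carried the exon of U2af1-201 alone in WT, and 37.1%, 37.8% and 36.2% did in KO. The exon of U2af1-202 alone was carried by 12.2%, 23.8% and 22.3% in WT and 13.6%, 21.7% and 21.8% in KO. Transcripts with neither exon made up 48.4%, 30.4% and 27.4% in WT and 44.9%, 35.8% and 38.3% in KO. Each of these forms overlapped between genotypes, and mouse 1 lay apart from mice 2 and 3 for the last 2 in both. Transcripts with both exons made up 4.43%, 6.48% and 7.5% in WT and 4.44%, 4.67% and 3.64% in KO, also with overlap. Set against U2af1-201 alone, they were at 11.2%, 14.2% and 14.9% in WT and 10.7%, 11% and 9.13% in KO. These values did not overlap, with a difference of -3.17 points by TPM and -1.81 points by estimated counts. Without the mice numbered 1, the share with neither exon was 8.16 points higher in KO. U2af2 was divided mainly between U2af2-201, with 58.6% to 61.4% in WT and 59.4% to 62.9% in KO, and U2af2-209, and both overlapped.

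Among all 105 member transcripts that held 10% or more of their gene, 8 transcripts in 7 genes did not overlap between genotypes, against 3045 of 30621 transcripts of all genes (9.94%). Besides those of Rbm5, Sf1 and Snrpg they were Prpf31-202 and Prpf31-205, Eftud2-207, Snrnp200-201 and Xab2-204, and none of these differed by 5 points. The coding Prpf31-202 was at 34.0%, 31.4% and 32.4% in WT and 37.9%, 36.0% and 34.9% in KO. Its partner with a retained intron, Prpf31-205, was at 50.7%, 50.4% and 48.4% in WT and 47.5%, 47.1% and 45.9% in KO. Transcript shares of members differed by a median of 1.582 points in absolute value, beside 2.018 points over 30621 transcripts of all genes.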

How the data were processed

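The study's methods describe paired-end sequencing of poly(A)-selected, stranded mRNA libraries, with transcripts quantified by kallisto (version 0.46.0 in the submitters' processing notes, which also name STAR 2.7.1a) on GRCm38. Deposited were estimated counts and TPM per transcript for each mouse, made by the authors, and a gene table of TPM. Isoform values are estimates that divide reads among overlapping transcripts.

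Of 118783 transcripts, 116622 matched GENCODE M21 and were summed per gene. Gene TPM of all 49 members equalled the deposited table within 0.001. Estimated counts were rounded and tested with edgeR 4.0.16 (TMM, filterByExpr, quasi-likelihood) and diffSpliceDGE in R 4.3.3, with Benjamini-Hochberg adjustment. DESeq2 1.42.0 and limma 3.58.1 were alternatives. Intervals are 95%. Shares of TPM used genes of 1 TPM or more in every mouse and PSI used events of 1 TPM or more with a mean PSI of 5% to 95% in either genotype. The scripts were tested on simulated data. Replicates are separate mice.

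Deviations of same-numbered mice from their group means correlated at 0.553, 0.415 and 0.383, and the labels give no reason. WT mouse 2 with KO mouse 3 (0.417) and WT mouse 3 with KO mouse 2 (0.394) correlated about as much. The numbers therefore set the mice numbered 1 apart, but do not pair mice 2 and 3. Members and lists were chosen with earlier results of these data known. Named genes were the extremes of level in each role, the 10 smallest p-values, genes with shares apart, and genes with known alternative transcripts. The PSI measures and the Rbm5 forms were added after seeing the data. No protein sequences were used here.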

Additional observations from a re-analysis of the deposited data

How the results depend on the processing

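The count of 0 members called for gene level was the same under every alternative: DESeq2, RLE size factors, no filter, length-scaled counts, limma at pseudocounts of 1 and 0.1, the replicate block, a batch term, both mice numbered 1 left out, and each mouse left out in turn. Members with an unadjusted p below 0.05 numbered 1 with the replicate block, 4 with the batch term and 6 without both mice numbered 1; leaving out single mice gave 0 throughout. For transcript usage, 0 members were called with limma's diffSplice, with at least 10 counts per transcript in every mouse, in the gene-level F test (3, 1 and 12 genes called in all) or with the replicate block, 1 with the batch term, 2 without both mice numbered 1, and 0 to 2 when single mice were left out, the 2 without WT mouse 1.

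Members with a transcript share apart numbered 0 at a minimum difference of 10 points, 2 without both mice numbered 1 (Snrpa1 and U2af1, Rbm5 then differing by less than 5 points), 2 among protein-coding transcripts only, and 1 to 7 when single mice were left out, with 7 of 48 without WT mouse 3 or KO mouse 1, where 17.6% and 16.4% of all genes passed. For the non-productive share the counts were 0 at 10 points, 0 without both mice numbered 1, 1 to 3 for single mice (4.34% to 6.66% of all genes) and 2 by one sign in all 3 pairs (a replicate block). Member cassette exons apart numbered 4 without both mice numbered 1, 3 by one sign in all 3 pairs and 0 to 4 for single mice (8.86% to 13.1% of all exons), and retained introns 2 to 5 for single mice (6.78% to 11.2% of all introns). With estimated counts in place of TPM, Rbm5 alone had a transcript share and a non-productive share apart (6.16% and 1.75% of all genes passed). By counts 0 member exons and 2 introns, both in Rbm5, were apart (5.16% of all exons and 4.1% of all introns). The causes of these shifts were not tested. With 2 mice against 3, more genes separate by construction.

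Log2 fold changes of 25 named genes gave 375 values under the alternatives, of which 364 lay within 1 SE of the value from all mice and 11 moved further; none was called. Without WT mouse 1 the estimates of Puf60, Snrpa1, Snrpb, Snrpb2, Snrpc and Snrpf, below 0 with all mice, were 0.10, 0.10, 0.20, 0.40, 0.26 and 0.28. With length-scaled counts Eftud2 was at -0.31. Each mouse had at least 194098391 estimated counts. With 3 mice per genotype an exact permutation test cannot go below 0.1.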
